A study of Saccharomyces cerevisiae with 13 samples.

Results

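The second cell cycle after release from alpha factor was compared with the first, phase by phase, in 1 synchronised culture of budding yeast. The comparison used 12 of 13 arrays, chosen by time label: 6 arrays from 10 to 60 min formed the first cycle, 6 arrays from 70 to 120 min formed the second, and each array of the first was paired with the array taken 60 min later. The 0 min array, from the arrest itself, has no partner and is only described. The cells were of the W303 background and labelled as a yox1 yhp1 mutant, with no statement of the kind of mutation. They were arrested with alpha factor, the peptide pheromone that holds cells of the a mating type in G1, and released into the rich medium YEPD. Both cycles and the arrest therefore carry the same labelled genotype, and nothing here sets the mutant against a wild-type time course. Cy5 marked the time-point RNA and Cy3 the RNA of an unsynchronised wild-type culture grown overnight in YEPD to an optical density of 0.6. There was 1 array per time, no repeat of the course and no dye swap. The p-values for level below thus measure the scatter of 6 paired differences within 1 culture. Those for cycling and swing measure the scatter of the 12 arrays around a curve fitted to each cycle. Neither kind measures the spread between cultures.

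A culture released from arrest starts with cells at one point of the cycle, and its members then drift apart because cells differ in how long each stage takes and because a new daughter passes through a longer G1 than its mother. Genes of the cell cycle switch on in waves: G1/S genes for DNA synthesis, histone genes in S phase, mitotic genes of the CLB2 cluster, and genes for separating mother from daughter at the M/G1 boundary. Nutrient pathways such as those for phosphate and sulfur are switched mainly by what the medium and the cell's stores supply. In RNA from a whole culture, fewer cells of a kind and less RNA per cell cannot be told apart.

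Values are log10 ratios of sample to reference, centred on the median of each array. The base of 10 was inferred from the values, and the folds rest on it. Of 6205 genes, 6107 had values in at least 5 of 6 pairs and were tested, and 98 were left out. Arrays held 6065 to 6176 gene values, and their number limits the precision. The spread of values over genes went from an SD of 0.169 at 10 min to 0.112 at 60 min and was 0.0942 to 0.114 on the second-cycle arrays. The paired arrays correlated across genes with r from 0.638 for 10 and 70 min to 0.790 for 40 and 100 min, as a description over genes that share each array. The pair of 10 and 70 min also had the widest spread of differences, with an SD of 0.131 against 0.0706 to 0.111 for the others. The mean of 28 pheromone response genes was 0.588 in the arrest and -0.105 and -0.0954 over the 2 cycles. Of the genes in the strain label, YOX1 gave a signal that changed over time, and the label does not state the kind of mutation. Its log10 ratios were 0.02, -0.00, 0.07, -0.04, -0.23 and -0.53 in the first cycle and -0.18, 0.12, -0.00, -0.04, -0.07 and -0.26 in the second, so YOX1 RNA went up and down in the library labelled as its mutant. YHP1 lay below the reference in each of the 12, between -0.50 and -0.12. Neither differed in level between the cycles (YOX1 by 0.05, adjusted p = 0.720, and YHP1 by 0.03, adjusted p = 0.724, limma with Benjamini-Hochberg adjustment).

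A small set of genes passed the test for a difference in level between the cycles. Each array was centred on its own median, so a shift of all genes together cannot be seen. The median difference, second minus first, was -0.00027 log10 units, with quartiles of -0.0267 and 0.0271, and 50.4% of genes lay below 0. At an adjusted p below 0.05 (limma on the paired differences, Benjamini-Hochberg over all 6107 genes), 18 genes were higher in the second cycle, or 0.295% of genes tested, and 28 were lower, or 0.458%. Together these were 46 genes or 0.753%. Of these, 15 and 22 differed by at least 1.5-fold. All 46 had the same sign in every pair measured, which held for 548 genes or 8.97% overall. In 5 of the 18 and 19 of the 28 the values of the cycles did not overlap, against 0.704% and 0.868% of all genes. The calls were made from the same differences, which favours a common sign and a lack of overlap. Neither contrast with all genes is therefore separate support. The genes just inside and outside the threshold were YDR491C (adjusted p = 0.0499) and ARO4 (adjusted p = 0.0517). The calls are sensitive to how the 6 differences are treated. Neighbouring differences were correlated (0.513 at a step of 10 min). A fit that removed this correlation called 0 genes (limma; 143 of 5697 at an unadjusted p below 0.05, smallest adjusted p = 0.136). All 43 called genes it could test kept their direction and an unadjusted p below 0.05. These genes were chosen from the same differences, so this is not separate support for the calls. Leaving out a pair changed the counts from 1 higher and 5 lower without 30 and 90 min to 38 and 54 without 60 and 120 min.

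Genes of acid phosphatases were among those that fell most. PHO12 (YHR215W), which encodes a secreted acid phosphatase, had log10 ratios of 0.28, 0.28, 0.27, 0.14, 0.17 and 0.14 in the first cycle and -0.12, -0.32, -0.37, -0.31, -0.24 and -0.14 in the second. Every first-cycle array was above the reference and every second-cycle array below it. The mean difference was -0.46 ± 0.135 (SD of 6 differences), a 2.90-fold lower level (adjusted p = 0.00284). PHO5 (YBR093C), the main repressible acid phosphatase, ran at 0.16, 0.05, 0.00, 0.01, 0.25 and 0.32 and then at -0.11, -0.38, -0.39, -0.28, -0.07 and -0.04. The 2 ranges did not overlap, both cycles dipped near their middle, and the fall of -0.34 ± 0.0579 had the smallest p of all genes (adjusted p = 0.000484). At 0 min both genes were already below the reference, PHO12 at -0.14 and PHO5 at -0.12. They were thus low in the arrest, high in the first cycle and low again in the second.

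PHO11, PHO3 and PHO89 followed the same direction. PHO11 is a near copy of PHO12, and PHO3, an acid phosphatase regulated by thiamine, lies beside its relative PHO5, so probes of these pairs may share signal and are not independent. PHO11 ranged from 0.11 to 0.33 in the first cycle and from -0.29 to 0.05 in the second, and PHO3 from 0.09 to 0.29 and from -0.43 to -0.02, in both cases without overlap. They fell by 0.42 and by 0.39 (adjusted p = 0.00596 for each). PHO89, a sodium-coupled phosphate transporter, ranged from -0.40 to 0.14 and then from -0.65 to -0.43, again without overlap, and fell 2.34-fold (adjusted p = 0.0121). SPL2, a regulator of low-affinity phosphate uptake, fell 1.45-fold (adjusted p = 0.0392). The high-affinity transporter PHO84 was lower in 6 of 6 pairs by 0.16 but missed the threshold (adjusted p = 0.0810). Of 18 phosphate genes, 6 fell and 0 rose, 16 lay below 0, and the median was -0.11 against -0.00027 for all genes. Over all genes tested, 0.458% were called lower and 50.4% lay below 0. The regulators PHO4 and PHO81 lay at 0.02 each and passed no test. The list also holds CTF19, a kinetochore gene next to VTC3, which did not pass either.

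**Figure D1:**
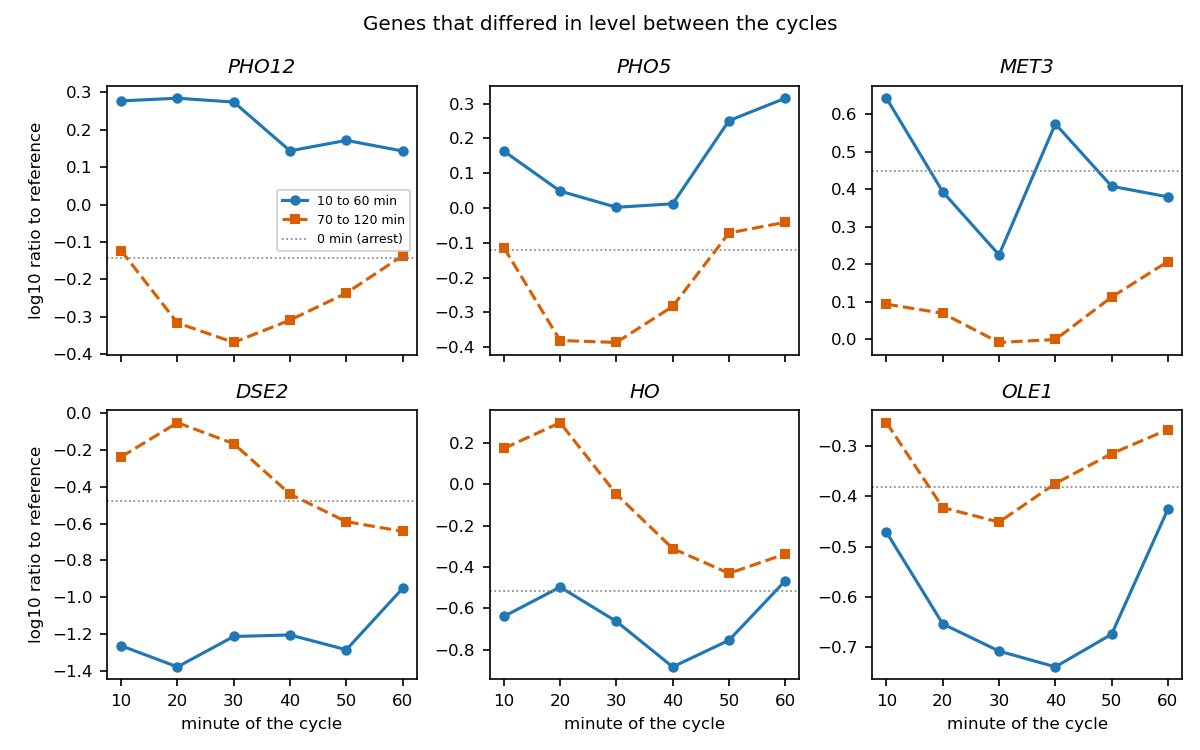
Log10 ratio to the reference against minute of the cycle for 6 genes that differed in level; circles are the 6 first-cycle arrays, squares the 6 second-cycle arrays taken 60 min later, and the dotted line is the 0 min array. The 2 lines do not cross in any panel: PHO12, PHO5 and MET3 ran lower in the second cycle, and DSE2, HO and OLE1 ran higher.

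Sulfate assimilation genes also fell. MET3 (YJR010W), ATP sulfurylase, the entry step, had ratios of 0.64, 0.39, 0.22, 0.57, 0.41 and 0.38 and then 0.09, 0.07, -0.01, -0.00, 0.11 and 0.21. The lowest first-cycle value was just above the highest second-cycle value, and the mean fell 2.28-fold (-0.36 ± 0.166, adjusted p = 0.0162). MET14, the kinase of the next step, ranged from 0.29 to 0.56 and then from 0.05 to 0.34, which overlap, and fell 1.76-fold (adjusted p = 0.0290). MET17, which joins sulfide to the carbon chain, fell 1.64-fold, MET6, methionine synthase, 1.55-fold, and MET10, a sulfite reductase subunit, by 0.18 log10 units (adjusted p = 0.0249, 0.0336 and 0.0282). Of 24 methionine and sulfur genes, 5 fell and 0 rose, 21 lay below 0, and the median was -0.13. The shares over all genes were 0.458% called lower and 50.4% below 0. In the arrest the list mean stood at 0.265, against 0.214 in the first cycle and 0.0864 in the second. Unlike the phosphatases, MET3 and MET14 were thus about as high at 0 min (0.45 each) as in the first cycle (means of 0.44 and 0.41). The regulators MET4, MET32 and MET30 lay at 0.05, 0.03 and -0.01 and did not pass.

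Chaperone genes were lower as a list, with few single calls. SSA1 (YAL005C), an Hsp70, had ratios of 0.01, 0.06, 0.16, 0.17, 0.08 and 0.07 and then -0.13, -0.16, -0.16, -0.07, -0.04 and -0.02. All first-cycle values lay above all second-cycle values, and SSA1 fell 1.54-fold (adjusted p = 0.0288). HSP82, an Hsp90, fell 1.36-fold and SSE1, an exchange factor of Hsp70, 1.35-fold (adjusted p = 0.0459 and 0.0392). Of 18 chaperone genes these 3 fell, 0 rose, and 18 of 18 lay below 0 with a median of -0.10 (1.26-fold). Among all genes, 0.458% were called lower and 50.4% lay below 0. Most of the list acts in the cytosol, but it also holds HSP60, HSP10 and SSC1 of mitochondria and KAR2 of the endoplasmic reticulum. SSA3, an Hsp70 listed with the stress genes, fell 1.30-fold (adjusted p = 0.0332). YAL004W, an identifier numbered next to SSA1, fell 1.74-fold (adjusted p = 0.0243), and its signal was not shown to be independent of SSA1.

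The other named genes lower in the second cycle belong to several pathways. HXT2 (YMR011W), a glucose transporter, kept its course but shifted down, from 0.52, 0.46, 0.13, -0.27, -0.21 and 0.15 to 0.36, 0.16, -0.01, -0.34, -0.46 and -0.19 (1.63-fold, adjusted p = 0.0288). GPD2 and GPP1, which make glycerol, fell 1.62-fold and 1.32-fold (adjusted p = 0.00442 and 0.0290). GPD2 ranged from -0.09 to 0.03 and then from -0.26 to -0.19, with no overlap. PUT1, proline oxidase, and ARG7, an enzyme of ornithine synthesis, fell 1.56-fold and 1.53-fold (adjusted p = 0.0185 and 0.0362). ATO3, an ammonium transporter, and ARN1, a siderophore transporter, fell 1.52-fold and, over 5 pairs, 1.48-fold (adjusted p = 0.0121 and 0.0407). HSP31 fell 1.92-fold over 5 pairs (adjusted p = 0.0121). The identifiers YIL082W-A, YCL020W, YBL101W-A and YNL208W fell 2.51-fold, 2.38-fold, 2.16-fold and 2.14-fold (adjusted p = 0.0149, 0.0144, 0.0232 and 0.0290). They are placed in no pathway here, and their signals were not shown to be independent of similar sequences. YIL082W-A stood far above the reference throughout, with means of 1.17 and 0.77. These make up the 28.

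Genes that act in the newborn daughter at cell separation were higher in the second cycle. DSE2 (YHR143W), a secreted protein of daughter cells that helps to degrade the septum, had ratios of -1.26, -1.38, -1.21, -1.21, -1.29 and -0.95 in the first cycle and -0.24, -0.05, -0.17, -0.44, -0.59 and -0.64 in the second. The cycles did not overlap, and the rise of 0.86 ± 0.352, or 7.29-fold, was the widest of the called genes (adjusted p = 0.00788). DSE1, a daughter-specific protein, rose 3.26-fold, from a range of -0.92 to -0.62 to one of -0.44 to 0.04 (adjusted p = 0.0445). At 0 min DSE2 stood at -0.48 and DSE1 at -0.25, above every first-cycle value of each. BUD9, a marker of the bud site, rose 1.67-fold (adjusted p = 0.0392). EGT2 and SCW11, a septum protein and a wall glucanase, were 5.45-fold and 2.85-fold higher on average and did not pass (adjusted p = 0.123 and 0.0949). EGT2 went from -1.02, -1.22, -1.14, -1.05, -0.73 and 0.10 to 0.37, 0.19, -0.18, -0.41, -0.48 and -0.14, so its last pair ran the other way. Of 12 separation genes 11 were tested, 3 of these rose and 0 fell, 11 of 11 lay above 0, and the median was 0.37 (2.37-fold). Over all genes tested, 0.295% were called higher and 49.6% lay above 0. The list's mean difference was 0.758 at 10 min of the cycle, 0.265 at 40 min and -0.0242 at 60 min, so it lay in the early arrays of the cycle. By the fit described below, the fitted second peak of its 7 cycling members came a median of 15.5 min later than 60 min after the fitted first. The list mean was -0.464 at 50 min, -0.159 at 60 min, 0.185 at 70 min and 0.0440 at 80 min. The limit between the cycles thus fell within a rise, and the fitted first peak may be the start of the rise that gave the second. In the list's differences a rise in level, a later peak and a single rise cut by the limit between the cycles were thus not told apart.

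HO, the endonuclease of mating-type switching, and RME1, a repressor of meiosis, rose as well. HO (YDL227C) had ratios of -0.64, -0.50, -0.66, -0.88, -0.75 and -0.47 and then 0.17, 0.30, -0.05, -0.31, -0.43 and -0.34. The cycles did not overlap, and HO rose 3.48-fold (0.54 ± 0.269, adjusted p = 0.0185). RME1 ranged from -0.42 to -0.14 and then from -0.18 to 0.22, and rose 2.01-fold (adjusted p = 0.0332). TEC1, a transcription factor of filamentous growth, and MDG1 rose 1.56-fold and 1.81-fold (adjusted p = 0.0407 and 0.0288). OLE1 (YGL055W), the fatty acid desaturase, ran at -0.47, -0.65, -0.71, -0.74, -0.68 and -0.43 and then at -0.25, -0.42, -0.45, -0.37, -0.31 and -0.27. The ranges overlapped slightly, but each pair rose, by 1.84-fold on average (adjusted p = 0.00596). OLE1 was the called member among 13 fatty acid genes, whose median was -0.014.

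Cell wall genes made up part of the remainder. HPF1, a wall glycoprotein, went from -0.19 to -0.08 in the first cycle to 0.00 to 0.29 in the second without overlap and rose 2.01-fold (adjusted p = 0.0121). EXG1, an exoglucanase, and PSA1, which makes GDP-mannose for glycoproteins, rose 1.62-fold and 1.58-fold (adjusted p = 0.0362 and 0.0144). With 12 of 16 above 0, the list of bud growth and wall genes that holds EXG1 had a median of 0.027, and 2 of its members, EXG1 and BUD9, rose. Among all genes, 49.6% lay above 0 and 0.295% were called higher. INA1, a membrane protein, rose 1.75-fold and RPI1, a transcription factor, 1.89-fold over 5 pairs (adjusted p = 0.0121 and 0.0185). GAT2, a GATA-family factor, YDR491C and YLR112W rose 1.62-fold, 1.63-fold and 1.34-fold (adjusted p = 0.0326, 0.0499 and 0.0290). The sporulation genes SPS4 and SPO74 rose 1.48-fold and 1.29-fold (adjusted p = 0.0332 and 0.0392). SPS4 was the called gene among 14 markers of alpha cells, diploids and meiosis, whose median was 0.016 and whose list mean per array stayed between -0.0508 and 0.0188 in both cycles. The part of such cells in the result was not tested.

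**Figure D2:**
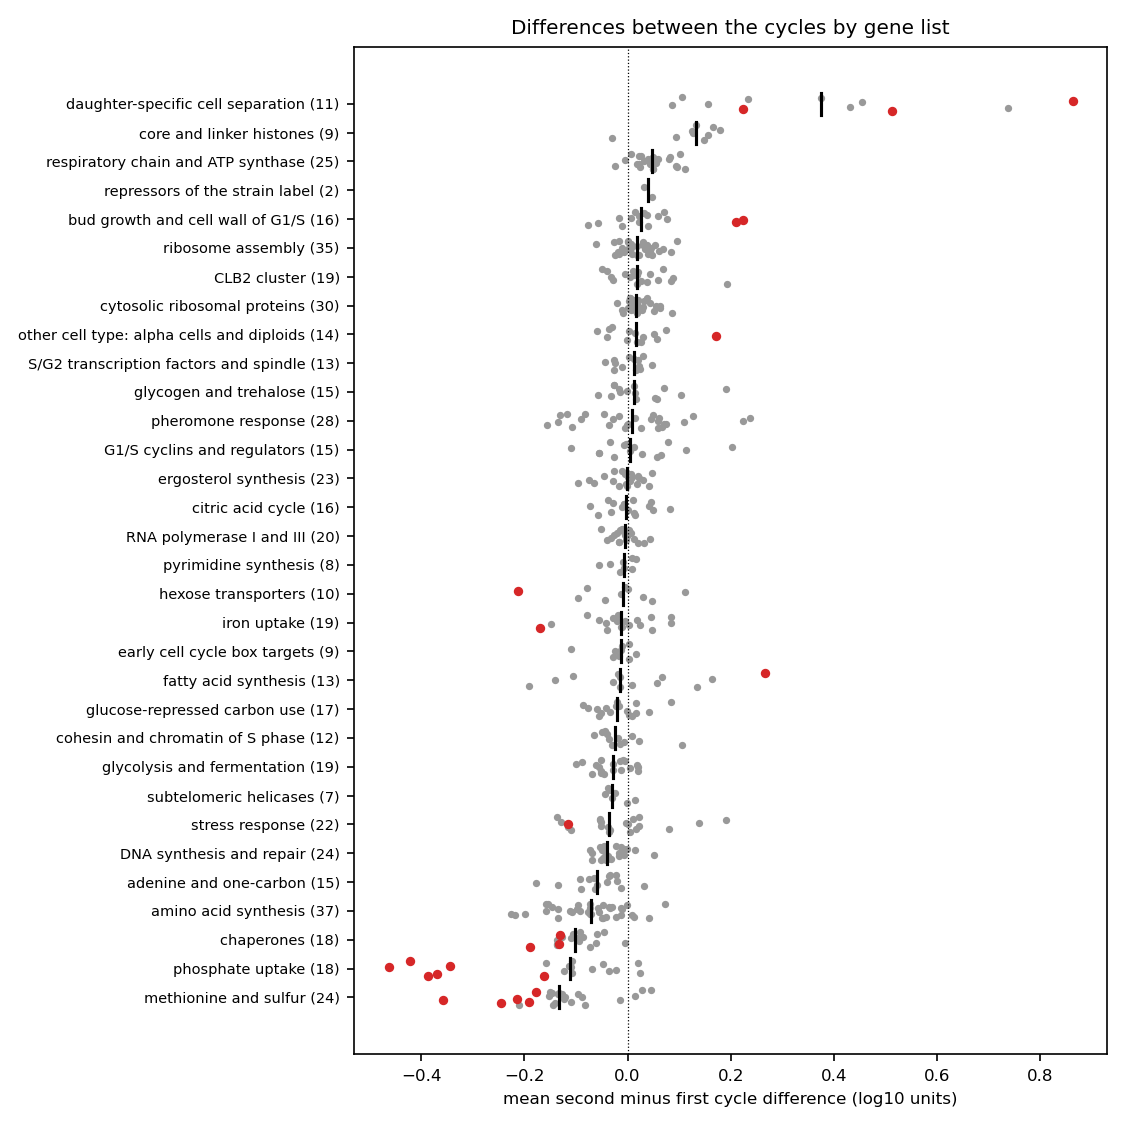
Mean difference between the cycles (second minus first, log10 units, 6 pairs) for each member of the gene lists; red points passed the adjusted test, grey points did not, black bars are list medians and numbers in brackets are genes tested. Of the phosphate genes 16 of 18 lie to the left of 0, as do 21 of 24 methionine genes and 18 of 18 chaperone genes, and 11 of 11 daughter-specific separation genes lie to the right.

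The differences were not even over the cycle. Among the genes that rose, 15 of 18 differed more over the minutes 10 to 30 than over 40 to 60, and among those that fell 21 of 28 did. The same held for 64.3% of all genes, whose differences were also more widely spread in the early pairs (SD of 0.0850 to 0.131, against 0.0706 to 0.0808). Among the 18, 14 were also cycling by the test described below, and among the 28, 12 were, against 25.9% of all genes. The arrest did not lie on a straight course through both cycles for most of them. Of the 28 genes that fell, 7 had a 0 min value above their first-cycle mean, against 55.3% of all genes. Of the 18 that rose, 3 had a 0 min value below it, against 44.7%. The same first-cycle mean enters the difference by which these genes were called. The shares over all genes are therefore not a like comparison, and no conclusion is drawn from the contrast.

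Several larger groups shifted a little with no called member. Among all genes tested, 50.4% lay below 0 and 49.6% above it. Of 37 amino acid synthesis genes 33 lay below 0 (median -0.071, 1.18-fold), and of 15 adenine and one-carbon genes 14 did (median -0.059). Of 25 respiratory chain and ATP synthase genes 23 lay above 0 (median 0.047, 1.12-fold), and of 30 ribosomal protein genes 27 did (median 0.017). The list mean of the respiratory genes was higher in 6 of 6 phases and that of the adenine genes lower in 6 of 6. Core and linker histones had 8 of 9 members above 0 with a median of 0.13, while 22 of 24 DNA synthesis genes lay below 0 (median -0.039). Both of these lists cycle strongly, and their differences changed sign within the cycle: the histone mean was 0.322 higher at 60 min and differed by -0.0666 at 30 min. Control spots are a scale for shifts of this size. Spots for E. coli, human and phage DNA were 0.0292 to 0.0754 higher in the second cycle on average, and the other 6 spots differed by -0.0314 to 0.0387.

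The second question was whether genes kept their swing, the height of the peak over the trough. A gene was counted as cycling when a cosine and sine of 60 min, averaged over both cycles, passed an adjusted p below 0.05 (limma), which 1584 of 6107 genes or 25.9% did. A gene that moves strongly in 1 cycle can pass this test. The swing of each cycle was measured along the gene's own common curve. The second swing was smaller in 1431 of 1584, or 90.3%, and the median ratio of second to first was 0.471 with quartiles of 0.310 and 0.658. The plain range of the 6 arrays was smaller in 1401 of them. Over all genes, the median range went from 0.144 to 0.107, with 70.6% of genes narrower. For the 223 genes whose common swing was at least 2-fold, the ratio was higher, 0.547, and 13 exceeded 1. The ratio of swings stays below 1 under the other treatments run, but scaling every array to the same spread moved its median to 0.592.

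**Figure D3:**
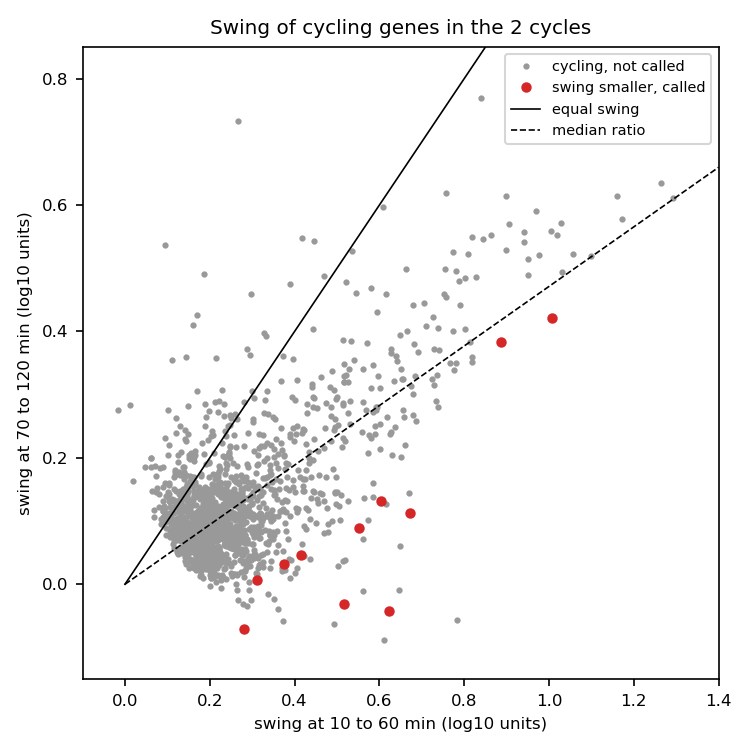
Swing in the second cycle (70 to 120 min) against swing in the first (10 to 60 min), both in log10 units along the gene's common curve, for 1584 cycling genes; red points are the 11 whose swing was called smaller, the solid line marks equal swing and the dashed line the median ratio of 0.471. Most points lie below the solid line.

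Few single genes reached the threshold. Of the cycling genes, 11 had a called smaller swing (0.694% of the 1584; 667 at an unadjusted p below 0.05) and 0 a called larger one (limma-moderated test; 15 at an unadjusted p below 0.05). The genes on either side of the threshold were DPM1 (adjusted p = 0.0419) and RTT107 (adjusted p = 0.0531). The count was 0 without the pair 20 and 80, 40 and 100, or 50 and 110 min, 1 without 30 and 90 min, 75 without 10 and 70 min and 148 without 60 and 120 min. All 11 kept an unadjusted p below 0.05 and their direction in each of these. They were chosen from the same arrays, so this is not separate support. The swing test was not run with the correlation of neighbouring arrays removed.

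Some of the 11 moved in the first cycle and lay nearly flat in the second. PYC1 (YGL062W), pyruvate carboxylase, had log10 ratios of 0.48, 0.47, 0.30, 0.12, -0.01 and 0.10 and then -0.04, 0.03, 0.01, -0.01, 0.05 and 0.04. Its swing went from 3.28-fold to none along the common curve (0.93-fold, adjusted p = 0.0257), so that all 6 second-cycle values lay within 0.0908 of each other. ARO5 (YGL117W) went from 0.58, 0.79, 0.52, 0.33, 0.19 and 0.12 to 0.21, 0.13, 0.24, 0.16, 0.23 and 0.21 (adjusted p = 0.0282). AHP1, a peroxiredoxin, had a range of 0.259 and then of 0.102 (adjusted p = 0.0257). HEM15, ferrochelatase, and DPM1, dolichol phosphate mannose synthase, had first-cycle swings of 2.61-fold and 2.05-fold and second-cycle swings of 1.11-fold and 1.02-fold. UTP20, of rRNA processing, went from 2.37-fold to 1.08-fold (adjusted p = 0.0419).

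The rest of the 11 had second-cycle swings from 1.23-fold to 2.64-fold. ASF1 (YJL115W), a histone chaperone, ran at 0.33, 0.46, 0.25, -0.18, -0.41 and -0.17 and then at 0.19, 0.20, 0.09, -0.04, -0.14 and -0.14. Peak and trough both drew in, and the swing went from 7.70-fold to 2.42-fold (adjusted p = 0.0257). DUN1, a checkpoint kinase, went from 4.70-fold to 1.30-fold and MIF2, a centromere protein, from 3.56-fold to 1.23-fold (adjusted p = 0.0350 and 0.0257). YBR089W went from 10.1-fold to 2.64-fold and YLR463C from 4.01-fold to 1.35-fold (adjusted p = 0.0257 and 0.0282). These identifiers are numbered next to POL30 (YBR088C) and near YRF1-4 (YLR466W). Their signals were not shown to be independent of those genes.

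The largest falls of swing by size mostly missed the threshold. RNR1, the large subunit of ribonucleotide reductase, went from 14.9-fold to 3.79-fold (adjusted p = 0.0879), and CHS2, the chitin synthase of the septum, from 18.4-fold to 4.31-fold (adjusted p = 0.110). The mitotic cyclin CLB1 went from 12.6-fold to 3.30-fold (adjusted p = 0.0573) and the membrane protein MRH1 from 19.6-fold to 4.09-fold (adjusted p = 0.0573). CLB1 had ratios of -0.71, -0.66, -0.35, 0.19, 0.29 and 0.07 and then -0.10, -0.29, -0.14, 0.16, 0.21 and 0.17. Its peak was thus nearly as high in the second cycle and its trough was shallower. NCE103, carbonic anhydrase, OPI3, a phospholipid methyltransferase, and SSU1, a sulfite pump, swung 6.06-fold, 4.09-fold and 4.44-fold in the first cycle and had ratios of swing of -0.07, -0.14 and -0.01 (adjusted p = 0.0684, 0.0573 and 0.0808). A ratio below 0 means that the second course ran against the common curve. YIL082W completes these with a ratio of 0.09, and its signal was not shown to be independent of that of YIL082W-A. In all, 190 cycling genes had a ratio under 0.2 and 21 of them under 0.

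The lists of several cell cycle waves had median ratios of swing below 1, as did the 1584 cycling genes together (0.471). The lists were not tested against each other. The 9 histone genes, all cycling, had a median ratio of 0.576, from 0.425 to 0.680. HTA1 (YDR225W), for histone H2A, ran at -0.66, 0.04, 0.32, 0.03, -0.48 and -0.81 and then at -0.41, 0.07, 0.20, 0.02, -0.19 and -0.36, so that its swing went from 14.4-fold to 4.12-fold (adjusted p = 0.0556). Its peak stayed at 30 min of the cycle in both, and most of the change was in the trough. G1/S regulators had a median ratio of 0.573 over 14 genes, DNA synthesis genes 0.498 over 22, and the CLB2 cluster 0.517 over 18. Cohesin and chromatin genes of S phase had 0.441 over 11, and bud growth and wall genes of G1/S 0.701 over 16. The separation genes of the M/G1 boundary, described below, did not share this. The G1 cyclin CLN2 went from 6.73-fold to 3.06-fold (adjusted p = 0.147) and the mitotic cyclin CLB2 from 9.44-fold to 3.31-fold (adjusted p = 0.109). YOX1 had a ratio of 0.575 (difference of swing -0.21, adjusted p = 0.486), and YHP1 was not called cycling (adjusted p = 0.0862).

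Lists of growth and storage genes were described in the same way. Over all 1584 cycling genes 90.3% had a ratio below 1 and the median was 0.471, so a count such as 21 of 21 is near the general share. Ribosome assembly genes had a median of 0.321, with 21 of 21 cycling members below 1, citric acid cycle genes 0.307 over 10, and glycogen and trehalose genes 0.244 over 11. The 6 cycling stress genes had 0.227. The mean of the glycogen and trehalose list was 0.301 at 10 min, 0.0183 at 40 min and between 0.0865 and 0.189 from 60 min to the end. The mean of the ribosome assembly list was -0.359 at 10 min and -0.165 at 50 min and lay between -0.275 and -0.210 in the second cycle. Both lists thus had their widest movement directly after release.

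A minority of cycling genes kept their swing, taken as a ratio from 0.8 to its inverse. These were 181 or 11.4%, of which 20 had a common swing of at least 2-fold, and no test here shows that the swings are equal. HXT2 had swings of 6.91-fold and 5.88-fold, a ratio of 0.916 (95% interval of the difference -0.301 to 0.161 log10 units). NCE102 (YPR149W), a protein of eisosomes, ran at -0.28, -0.38, -0.25, 0.01, 0.15 and 0.22 and then at -0.02, -0.24, -0.20, 0.04, 0.23 and 0.38. Both cycles were highest late, and the swings were 4.06-fold and 3.95-fold (interval -0.244 to 0.220). CHS1, the repair chitin synthase, had 3.43-fold and 3.37-fold (interval -0.274 to 0.260), and SVS1, a wall protein, 5.70-fold and 4.16-fold (interval -0.291 to 0.0183). UTH1, PRY1 and GAS3 had ratios of 0.847, 0.918 and 1.04 and NCW2, AIM44 and DSE3 of 1.22, 1.22 and 0.808. Among the lists, hexose transporters had a median of 0.916 over 7 cycling genes, with 5 of 7 below 1.

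**Figure D4:**
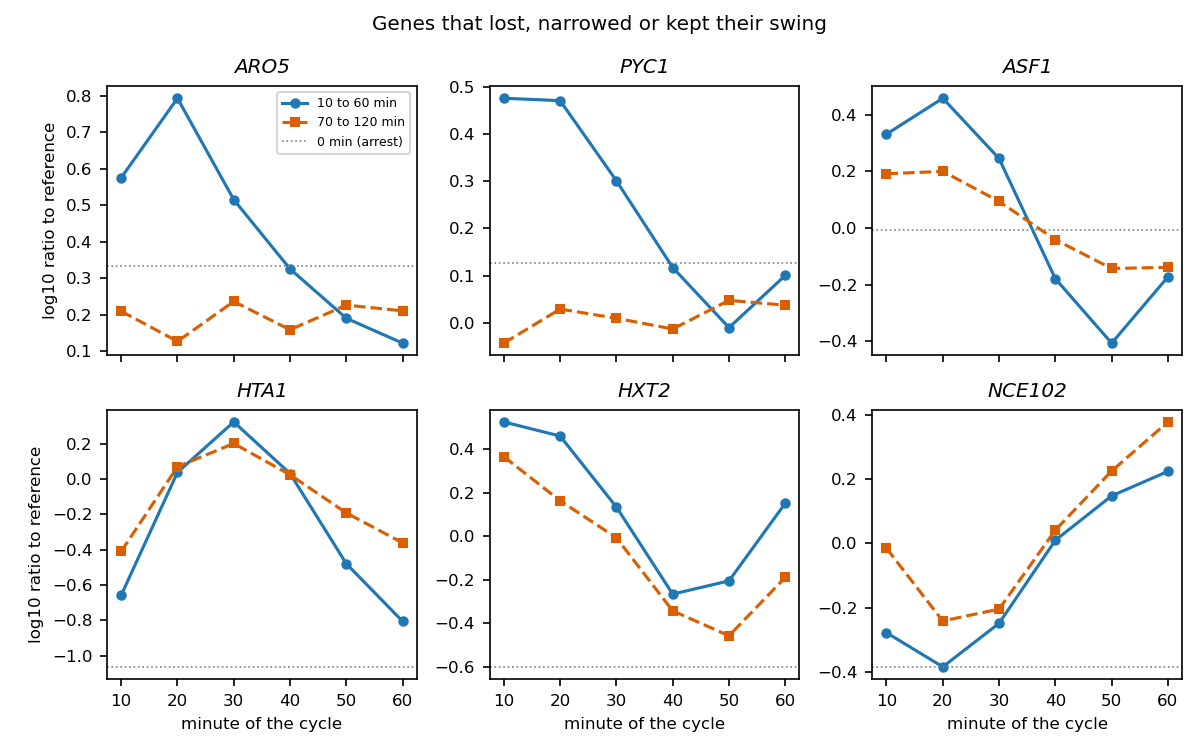
Log10 ratio to the reference against minute of the cycle for 6 cycling genes; circles are first-cycle arrays, squares second-cycle arrays and the dotted line the 0 min array. ARO5 and PYC1 were nearly flat in the second cycle, ASF1 and HTA1 kept their shape with a smaller swing, and HXT2 and NCE102 had ratios of swing of 0.916 and 0.980.

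Larger swings in the second cycle were fewer, and none was called among the cycling genes. HO went from 1.85-fold to 5.41-fold (adjusted p = 0.0971) and DSE4, a daughter-specific glucanase, from 0.10 to 0.54 log10 units (adjusted p = 0.0986). CHA1, which degrades serine and threonine, went from 1.54-fold to 3.09-fold, SHM2, of one-carbon metabolism, from 1.03-fold to 1.92-fold, and PHO3 from 1.44-fold to 2.57-fold (adjusted p = 0.123, 0.0836 and 0.145). HPF1 had no swing in the first cycle (0.96-fold) and one of 1.88-fold in the second (adjusted p = 0.0684). SCW4, PRR1, PLB2 and TUB3 had ratios of 2.51, 3.19, 2.49 and 2.69 and adjusted p-values of 0.108, 0.234, 0.139 and 0.199. The 7 cycling members of the separation list had a median ratio of 1.23, with 3 below 1, and the 6 of the phosphate list 1.13.

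Over all 6107 genes, whether cycling or not, 1 had a called larger swing, or 0.0164%, and this was DSE1. DSE1 was also the 1 gene whose curve differed in size or timing between the cycles (adjusted p = 0.0284, limma F test over all genes; 1199 at an unadjusted p below 0.05). Its ratios were -0.87, -0.92, -0.76, -0.67, -0.63 and -0.62 and then -0.08, 0.04, -0.17, -0.32, -0.44 and -0.43. It was highest late in the first cycle and early in the second. Since the cycles ran against each other it was not called cycling (adjusted p = 0.241). Next in that test were ALD6 (adjusted p = 0.0621), an aldehyde dehydrogenase with a ratio of swing of -0.11, and PYC1, DSE4 and AHP1. The call of DSE1 did not hold without the pair 20 and 80, 30 and 90, 40 and 100 or 50 and 110 min or with arrays scaled to the same spread, where 0 genes were called.

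Timing was close to 60 min for most of the strongly cycling genes. Among the 223 genes of at least 2-fold common swing, the fitted peak came a median of 2.51 min later in the second cycle than 60 min after the first, with quartiles of 0.571 and 5.09 min, and 184 peaked later. Over all 1584 the median was 2.85 min with quartiles of -0.983 and 6.89 min, and 1095 peaked later. The fitted peaks of the 7 cycling separation genes were shifted more, by a median of 15.5 min (3.35 to 28.4 min). As described above, this may not be a shift between separate peaks. By time of peak, median ratios were lowest and nearly equal for peaks from 20 to 30 min and from 50 to 60 min. They were 0.432 (268 genes, 7 of the 11 calls) and 0.435 (297 genes, 0 calls). The highest was 0.547, for peaks from 0 to 10 min. Quartiles overlapped, at 0.294 and 0.584 for 20 to 30 min and 0.310 and 0.845 for 0 to 10 min. The delay was 1.58 min for peaks from 10 to 20 min and 4.43 min for peaks from 50 to 60 min. These are descriptions with no test, over arrays 10 min apart.

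**Figure D5:**
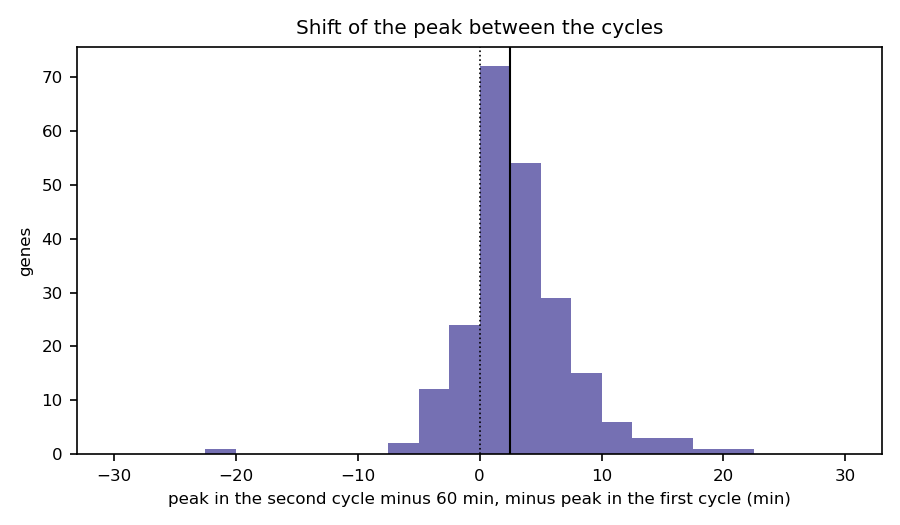
Number of genes by shift of the fitted peak in min, taken as the peak in the second cycle less 60 min and less the peak in the first, for 223 cycling genes of at least 2-fold common swing. The solid line marks the median of 2.51 min, and the dotted line marks no shift.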

How the data were processed

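The authors deposited 1 table of log ratios for 13 arrays, read here as log10 of sample (Cy5) over reference (Cy3), per the dyes in the labels. The base was inferred from 18 values at exactly 2 or -2. The sources used here do not say how the authors treated background, normalised or filtered. No scanner files were used, so signal over background is unknown, and dye bias is not balanced by swaps. Of 6217 entries, 12 are controls and 6205 genes; 5704 took a symbol from the reference table by locus tag, and 501 keep their identifier. Values at the limit were set to missing and arrays centred on their medians.

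Level was tested with limma 3.58.1 in R 4.3.3 (lmFit, eBayes) on the 6 paired differences, swing on a mean, cosine and sine for each cycle, two-sided with Benjamini-Hochberg adjustment at 0.05. The pairing comes from the time labels. The scripts were tested on simulated data. The members and lists were chosen with earlier results of these data known. Named genes were YOX1, YHP1, the 10 highest and 10 lowest differences, the 10 largest falls and rises of swing, the 10 largest kept swings, the 5 smallest curve p-values and up to 3 genes per list; the other called genes and list members were added after their values were seen. Alternatives covered limits, centring, scaling, completeness, array weights, pairing, period, correlation, linear time and robust fitting. A planned description of promoter motifs was not run, because no promoter sequences were used here.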

Additional observations from a re-analysis of the deposited data

Results flagged for a closer look

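Among 170 named genes and list means, 10 had a phase whose difference between the cycles lay far from the other 5, where chance alone gives about 1 in 20. Differences are second minus first in log10 units. At 10 min of the cycle PRR1 differed by 0.335 (others -0.0656 to 0.0281), YRO2 by 0.675 (-0.0895 to 0.124), FRE1 by 0.417 (-0.0938 to 0.0882) and DBP8 by 0.248 (-0.162 to -0.0166). The mean of the pheromone response list differed by -0.138 there, against 0.0185 to 0.0643 at the other phases. At 50 min CRH1 differed by 0.254 (-0.0649 to 0.00044) and HXK2 by -0.0499 (-0.116 to -0.0969). At 60 min CHS1 differed by -0.182 (0.137 to 0.284), CLN3 by -0.183 (-0.0186 to 0.0683) and MET17 by -0.0205 (-0.278 to -0.208).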

How the results depend on the processing

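The 46 genes with a called difference in level kept their direction under every treatment that could test them, and the counts of calls did not hold. The genes were chosen from the same arrays, so a kept direction is not separate support. Against 18 higher and 28 lower, array weights gave 122 and 144, a second cycle set 63 min later 78 and 97, times paired 70 min apart 58 and 58, linear time with a cycle 59 and 81, and removal of the correlation between neighbouring differences 0 and 0. Scaled arrays gave 33 higher. Without the replicate block, with the cycles compared as unpaired arrays, 9 were higher and 21 lower, and 23 of the 46 were called. The robust fit called 48 genes, of which 20 were among the 46. A curve for each cycle, added after seeing the data, gave 142 and 193. Leaving out each pair in turn gave 1 to 38 higher and 5 to 54 lower. Cycling genes numbered 759 to 1547 with a pair left out. Smaller swings were called in 118 genes with array weights, 169 with a 63 min cycle, 38 with linear time and 0 to 148 with a pair left out, against 11. Larger swings numbered 1 with scaled arrays, 1 with weights, 2 with a 63 min cycle, 1 with linear time and 0 to 9 with a pair left out, against 0. Curves differed in 0, 24, 31 and 20 genes under these 4 treatments and in 0 to 108 with a pair left out. The median ratio of swings was 0.592 with scaled arrays, 0.514 with linear time, 0.575 from ranges and 0.473 to 0.542 with a pair left out. The causes were not tested. With 1 array per time in 1 culture, a difference between cycles cannot be told apart from a drift of the medium, the labelling or the arrays over time. Loss of synchrony cannot be told apart from it either. The first cycle starts from the arrest and the second follows a division, so arrays paired by time may not match in phase, early in the cycle above all.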

Other observations

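Subtelomeric helicase genes YRF1, whose copies are nearly identical and are not told apart here, cycled in 7 of 7 members. Their list mean was 0.493 at 10 min, 0.536 at 20 min and 0.0444 at 50 min, and then 0.428 at 70 min and 0.128 at 100 min. The median ratio of swings was 0.547, and the median shift of the fitted peak was -2.72 min, or earlier in the second cycle, against 2.51 min for the 223 genes of at least 2-fold swing.

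The pheromone response list stood at a mean of 0.588 in the arrest and had left that level by 10 min, at 0.0428. It then stayed between -0.152 and -0.119 for the rest of the first cycle and between -0.115 and -0.0543 in the second. None of its 28 members differed in level between the cycles at the adjusted threshold (limma), and the median difference was 0.0081. Glycolysis and fermentation genes lay below 0 in 15 of 19, against 50.4% of all genes, with a median difference of -0.029 and 0 calls.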
